A study of Mus musculus with 7 samples.

Results

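Astrocytes of the posterolateral cortical amygdala (plCoA) in which neither Gfap nor Myoc was detected were examined by single-nucleus RNA sequencing. A barcode was taken as a nucleus when it had at least 1000 genes and at most 30000 unique molecular identifiers (UMIs, each marking 1 captured RNA molecule). A nucleus was taken as an astrocyte when Aqp4, Slc1a3 and Gja1 together gave at least 4 UMIs from at least 2 of these genes, with at most 1 UMI of neuronal genes (Slc17a7, Slc17a6, Gad1 and Gad2) and at most 1 of the genes Pdgfra, Mog and Csf1r, which mark other glia. Those with no UMI of Gfap, the intermediate filament of fibrous astrocytes, or of Myoc, the secreted protein myocilin, are the members described here. They numbered 5626 of 51115 nuclei (11.01%) and 75.8% of the 7425 astrocytes. They held 22614234 UMIs, with a median of 3696.5 UMIs and 1732 genes per nucleus.

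Tissue was taken from 2 domains of the plCoA, a region of the olfactory cortex, called aplCoA at its anterior end and pplCoA at its posterior end, of male C57BL6J mice aged 8 weeks. The purpose of the comparison was to find out how cell types differ between the domains. There were 7 libraries, each of tissue pooled from several mice, with 4 from aplCoA and 3 from pplCoA. The 2 libraries of aplCoA replicate 1 were summed, so that each domain had 3 replicates and an exact permutation test could not go below p = 0.1. By the study's methods all mice had been housed alone and kept from sensory input before tissue was taken, so that the groups shared this treatment and differed by domain. The libraries held between 50812605 and 129624583 UMIs, with a median of 5515.5 to 7159.5 UMIs per nucleus. Library pairs shared 5 to 36 nucleus barcodes, and 0 to 1 barcodes of members. The members numbered 1687, 574 and 1238 in aplCoA replicates 1, 2 and 3, and 1079, 522 and 526 in those of pplCoA.

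Astrocytes of grey matter clear glutamate from the synapse through the transporters encoded by Slc1a2 and Slc1a3 and turn it into glutamine. They buffer potassium, move water through the aquaporin encoded by Aqp4, and are joined to each other by connexin gap junctions. Those near the pia and in white matter carry more of the filament protein encoded by Gfap than those deep in the grey matter.

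The members were first compared with the genes that mark their label. Levels are given in CPM, the UMIs of a gene scaled to a common total over the same nuclei (counts per 1e6 UMIs). Because the members were chosen from these nuclei, levels against other classes are a description with no test. Over the 6 replicates, Slc7a10, which encodes a transporter of small neutral amino acids and was not used in the rule, averaged 164 ± 15.8 CPM (SD, n = 6). Etnppl, encoding the enzyme that breaks down phosphoethanolamine, averaged 101 ± 22.9 CPM (SD, n = 6). In the other classes apart from Gfap or Myoc astrocytes, Slc7a10 was at most 27.3 CPM, in oligodendrocyte precursors, and Etnppl at most 1.71 CPM, in oligodendrocytes. Of the genes the rule used, Slc1a3 averaged 2522 CPM, Gja1, the main astrocyte connexin, 317 CPM and Aqp4 254 CPM. Aqp4 was lower than in Gfap or Myoc astrocytes, where it averaged 670 CPM, and the ranges over replicates did not overlap.

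**Figure D1:**
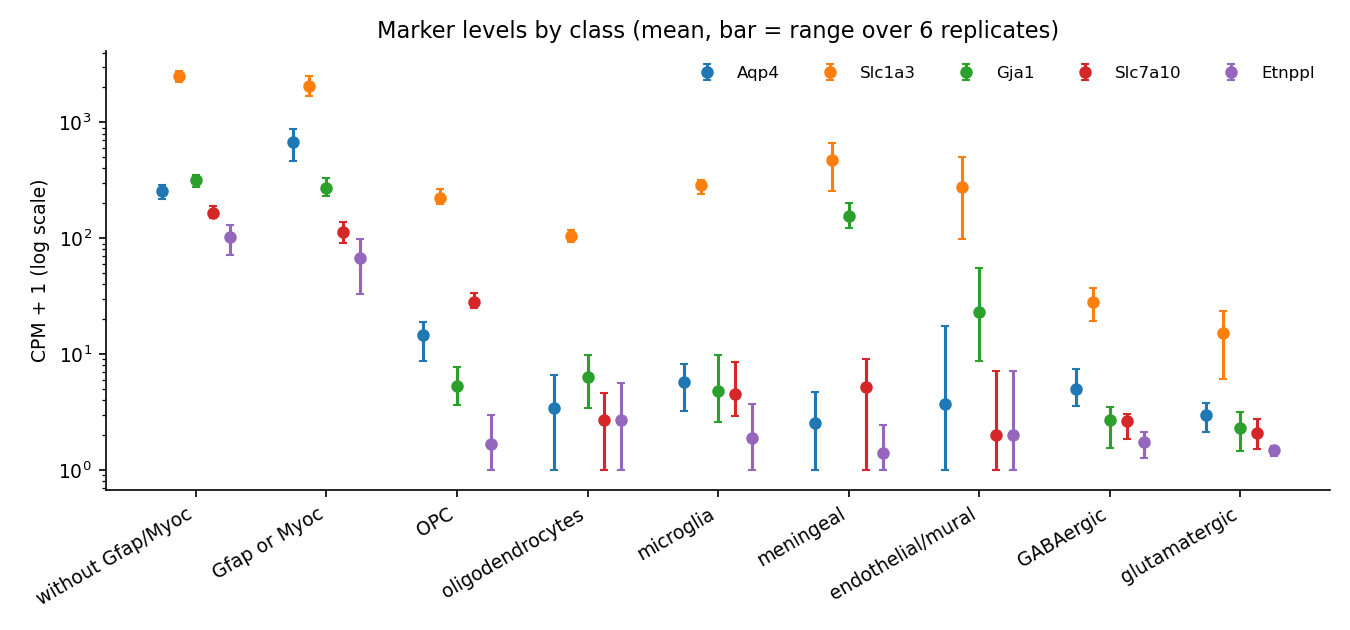
CPM + 1 (log scale) of the 5 marker genes in 9 classes of nuclei, each point the mean and each bar the range over 6 replicates; OPC stands for oligodendrocyte precursors. Slc7a10 and Etnppl, which no rule used, are high in both astrocyte classes, whereas Slc1a3 and Gja1 are also seen in the meningeal class, at 473 and 156 CPM.

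The share of nuclei with a UMI depends on depth and on free RNA, so it was taken after thinning each nucleus to 1500 UMIs and set beside microglia and macrophages, which should lack these genes. Their median was 3168 UMIs, against 3696.5 in the members, and 1 member and 33 of these nuclei were too shallow and were left out. Slc7a10 was seen in 21.3 ± 1.87% of the members (SD, n = 6) and in 0.483% of microglia, and Etnppl in 12.6 ± 2.27% (SD, n = 6) and 0.0817%. Without thinning, 44.0% and 23.3% of the members had a UMI of these genes, against 1.23% and 0.188% of microglia. The shares of members thus lay well above those of microglia for both genes. For Gfap or Myoc themselves, 1.61% of microglia had a UMI without thinning, which is taken here as background.

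Slc1a2, the gene of the main glutamate transporter of astrocytes, separated the members into unequal groups that the rule had not foreseen. This split was chosen after the values were seen and carries no test. No UMI of Slc1a2 was seen in 482 members (8.57%) and 1 to 3 UMIs in 104, whereas 3657 (65.0%) had 20 or more. The 586 members with at most 3 UMIs (10.4%) were as deep as the others, with medians of 3696 and 3696.5 UMIs. They made up 8.89%, 19.3% and 13.3% of the members of aplCoA replicates 1 to 3 and 6.39%, 9.77% and 7.60% of those of pplCoA. The share was highest in aplCoA replicate 2. The domains overlapped, but for each replicate number the share was higher in aplCoA.

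The nuclei with little Slc1a2 had the profile of another cell type. Aqp4 was at 24.2 CPM in them against 285 CPM in the rest, Gpc5 was 207 against 10529 CPM and Slc7a10 was 7.88 against 185 CPM. Instead they carried Ptgds, the prostaglandin D synthase abundant in the leptomeninges, at 31921 CPM against 468 CPM. The taurine and proline transporter genes Slc6a13 and Slc6a20a reached 1070 and 3066 CPM against 8.77 and 21.7 CPM. Bnc2, a zinc finger gene of fibroblasts, stood at 985 CPM against 18.9 CPM. The collagen gene Col1a2 and the proteoglycan gene Dcn stood at 305 and 209 CPM, and the ependymal gene Foxj1 was at 0. Of endothelial and mural genes, Cldn5 and Rgs5 were at 0, whereas Flt1 stood at 186 against 4.36 CPM, Vtn at 353 against 6.88 CPM and Pdgfrb at 158 against 66.3 CPM, and 38 of these nuclei met the endothelial and mural rule. Of these 586 nuclei, 227 (38.7%) also met the rule for meningeal fibroblast-like cells (at least 4 UMIs from at least 2 of Dcn, Col1a2, Slc47a1 and Bnc2), as did 28 of the 5040 other members (0.556%). Some genes did not follow the meningeal class. Slc47a1, which the rule of that class used, was at 29.7 CPM, against 1273 CPM in that class. Slc1a3 and Gja1, which the member rule used, were at 1947 and 483 CPM, against 473 and 156 CPM in that class. Members needed at least 4 UMIs of Aqp4, Slc1a3 and Gja1. Nuclei that had these from at least 2 of the genes were barred from the meningeal class. The difference in Slc1a3 and Gja1 thus followed from the rules. By the levels given above for the other genes, the label of parenchymal astrocytes goes against the data for these 10.4% of the members as a group. Single nuclei were not assigned to another cell type. The genes called between domains are also given in the 5040 that had at least 4 Slc1a2 UMIs, while values not said to be from these are from all members.

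**Figure D2:**
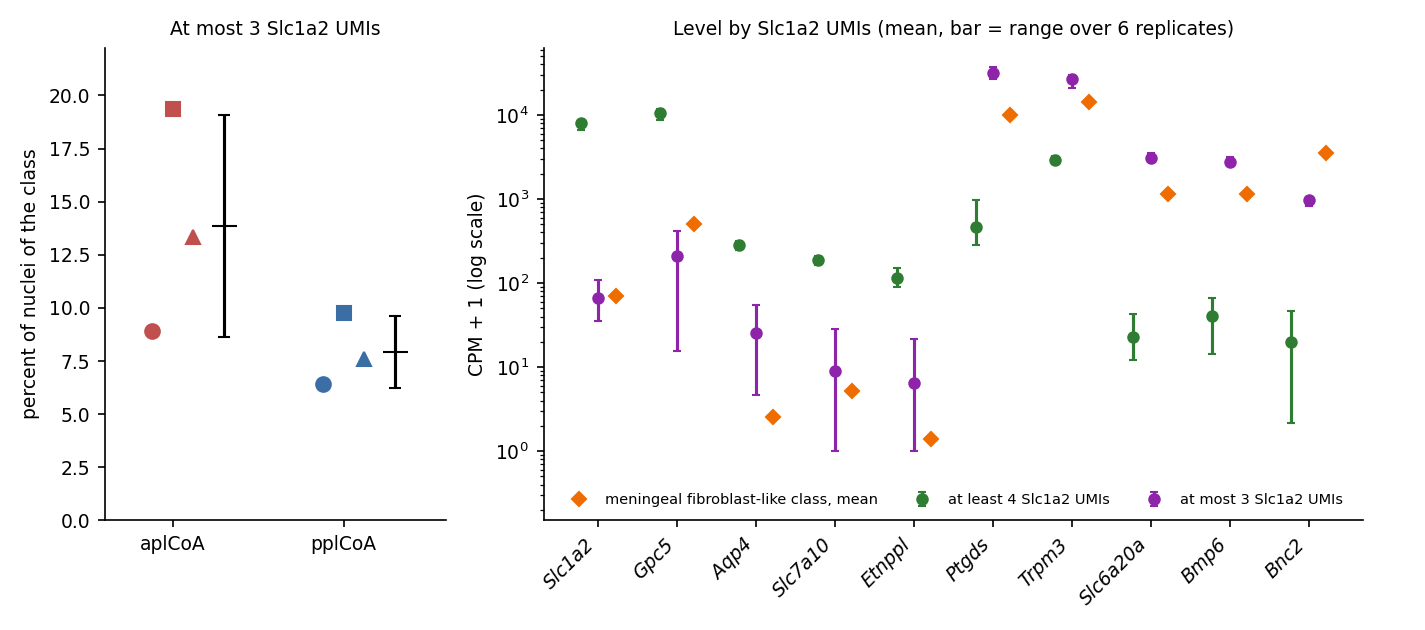
Left, percent of members with at most 3 Slc1a2 UMIs in each replicate (circle, square and triangle for replicates 1 to 3, with mean and SD beside them). Right, CPM + 1 (log scale) of 10 genes in members with at least 4 or at most 3 Slc1a2 UMIs (mean and range over 6 replicates) and the mean in meningeal fibroblast-like nuclei; the nuclei with little Slc1a2 have 31921 CPM of Ptgds and 24.2 CPM of Aqp4.

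At the edges of the rule, 271 members had exactly 4 UMIs of Aqp4, Slc1a3 and Gja1, with a median of 2737 UMIs, and 184 nuclei missed it with 3, with a median of 2527.5 UMIs. A single UMI of Gfap or Myoc kept out 785 astrocytes with a median of 3883 UMIs, and 1014 had 2 or more. There were 806 members with 1 UMI of the neuronal genes. The rules of other cell classes were met by 296 members, 255 of them through the meningeal genes and 48 through endothelial and mural genes.

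Against all classes other than Gfap or Myoc astrocytes, the genes of at least 50 CPM with the highest ratio to the next class held several of known astrocyte function. Etnppl was 59.3 times its level in the next class. Grin2c, the gene of an NMDA receptor subunit, stood at 256 CPM, 43.6 times the next class. Aqp9, an aquaporin that also passes glycerol and lactate, stood at 55.5 CPM, 54.3 times the next. Acsbg1, which activates long fatty acids, reached 285 CPM at a ratio of 33.9. Phkg1, a catalytic subunit of phosphorylase kinase, which starts the breakdown of glycogen, reached 649 CPM at a ratio of 25.6. For Ntsr2, the low-affinity neurotensin receptor, the ratio was 22.6, for Slc1a2 21.9, for Sox9, a transcription factor of glial fate, 19.8 and for Dio2, the deiodinase that makes active thyroid hormone, 19.1. The others of these 20 genes were Ttll8, Acat3, Ccdc190, Cyp4f15 and the less known Gm35552, C030018K13Rik, Gm7967, Gm6145, 2900052N01Rik, Gm12239 and Gm13872. The highest ratio was that of Gm35552, at 98.9. For Gm35552, Aqp9, Ttll8, Acat3 and Cyp4f15 the next class was endothelial and mural cells, of 209 nuclei, at means of 1.02 to 2.55 CPM. Aqp9 ranged there from 0 to 6.13 CPM over replicates. Ratios to levels so near 0 rest on few UMIs, and so does the order of these genes.

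Of these genes, Gm12239 stood apart between replicates. It was at 468, 566 and 536 CPM in aplCoA and at 443, 173 and 166 CPM in pplCoA. pplCoA replicate 1 thus lay with the aplCoA replicates rather than with its own domain. Gm13872 stood at 110, 126 and 151 CPM in aplCoA and at 172, 258 and 229 CPM in pplCoA, and the domains did not overlap. Neither passed the comparison of domains given further on (edgeR, adjusted p = 0.174 for Gm12239 and 0.0547 for Gm13872), but both did with the replicate number as a block (adjusted p = 0.00813 and 0.000554).

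The members were then set beside Gfap or Myoc astrocytes, which also hold 9.67% of nuclei with under 4 Slc1a2 UMIs (174 of 1799). With all members, the 10 genes higher by most in the members were Rspo2, Slc22a8, Slc6a13, Bnc2, Lama1, Aldh1a2, Slc6a20a, Prdm6, Ptgds and Col26a1, several of which are genes of the meninges, with mean log2 ratios of 3.52 to 5.33. With at least 4 Slc1a2 UMIs in both classes, a choice made after the data were seen, the largest mean log2 ratio in this direction was 1.03, for Ptgds. Of 3459 genes of at least 50 CPM in the higher class, 387 were then higher in the members in all 6 replicates and 445 were lower in all 6. Gabbr2, a subunit of the GABA-B receptor, stood at 366 against 200 CPM and Folh1, the peptidase that cleaves N-acetylaspartylglutamate, at 143 against 84.0 CPM. Etnppl stood at 114 against 70.4 CPM. The rest of this list was Nnat, Sgcd, Rpe65, C030005K06Rik, Sox1ot and Tnfaip8.

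In the other direction the ratios were larger. Apart from Gfap and Myoc, which the rule used, Slc38a1, a glutamine transporter gene, stood at 11.6 CPM in these members against 273 CPM in Gfap or Myoc astrocytes. The immediate early genes Fos and Egr1 stood at 7.84 and 6.38 CPM against 118 and 69.0 CPM. A2m, a protease inhibitor, stood at 6.56 against 95.9 CPM and Disp3 at 65.8 against 514 CPM. Sulf2 and P3h2 were also on the list, with folds of 11.2 and 7.85 toward the Gfap or Myoc class. Levels in Gfap or Myoc astrocytes varied widely between replicates, from 3.94 to 235 CPM for A2m.

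Among the members themselves, variation was ranked by the variance of Pearson residuals (the spread of a gene's UMIs beyond that of counting) in each replicate. With all members the list was led by Ptgds, Trpm3, Alcam, Nnat, Slc6a20a, Bmp6 and Ranbp3l, with median variances of 40.6 to 13.4 against a median of 1.11 over 10530 genes. Each of these genes was higher in the members with little Slc1a2 (for Trpm3, 26698 against 2931 CPM). Among the 5040 others, the list held Rbfox1, Luzp2, Nnat, Meg3, Snhg11, Kcnip4, Ptprd, Nrg3, Nkain2 and Nrxn3, with variances of 9.27 to 5.21. Luzp2, a leucine zipper gene of astrocytes and oligodendrocyte precursors, stood between 3637 and 5661 CPM in the replicates, above 224 CPM in glutamatergic neurons. Meg3, a long noncoding RNA of neurons, stood between 140 and 779 CPM in these members, at 7167 CPM in glutamatergic neurons and at 4533 CPM in empty droplets (barcodes under 100 UMIs). Apart from Luzp2 and Nnat, the genes on this list were between 2183 and 4758 CPM in empty droplets, and the part of free RNA in their variance was not tested.

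The share of members among all nuclei was 10.7%, 13.7% and 12.2% in aplCoA and 11.1%, 9.18% and 9.49% in pplCoA. The domains overlapped, since pplCoA replicate 1 lay above aplCoA replicate 1. The means were 12.2 ± 1.52% and 9.93 ± 1.05% (SD, n = 3 each), a difference of 0.227 on the logit scale that did not pass (limma, p = 0.0902, adjusted p = 0.162 over 9 classes; two-sided exact permutation test, p = 0.2). With only library 1 of the 2 libraries of aplCoA replicate 1 the adjusted p was 0.328, with only library 2 it was 0.0393, and with at least 4 Slc1a2 UMIs it was 0.275. The rules left 35.2% of all nuclei without a class (30.45% to 38.07% by replicate). Shares of one class depend on how much of the others was taken with the tissue, and the meningeal class moved with domain, at 3.73% of nuclei in aplCoA and 1.31% in pplCoA (limma, adjusted p = 0.0221). Microglia and macrophages, at 6.42% and 8.64%, and oligodendrocyte precursors, at 5.28% and 7.75%, passed in the other direction (adjusted p = 0.0302 and 0.0365). These calls were not firm: leaving out 1 replicate gave adjusted p of 0.0573 to 0.142 for microglia, 0.0374 to 0.142 for the precursors and 0.00411 to 0.1 for the meningeal class, which missed without aplCoA replicate 3 or pplCoA replicate 2.

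Of all astrocytes, 78.9%, 75.4% and 72.7% had no Gfap or Myoc UMI in aplCoA, and 73.9%, 73.9% and 80.2% in pplCoA. The means of 75.7% and 76.0% differed by less than the spread between replicates (two-sided exact permutation test, p = 1). After thinning to 1500 UMIs the means were 82.8% and 85.7% (p = 0.4, exact permutation). Median UMIs per member were 3922, 4074 and 3380 in aplCoA and 3829, 3547 and 3211 in pplCoA, and overlapped (exact permutation test, p = 0.4). For each replicate number, however, the median was higher in aplCoA.

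Expression was compared between aplCoA and pplCoA on the sums of each replicate, over the 5561 genes seen in at least 10% of the members of a domain. A gene could thus be tested through only the domain where it was higher. Here 89 genes (1.6%) passed an adjusted p of 0.05 (edgeR quasi-likelihood test), 16 higher in aplCoA (0.288%) and 73 higher in pplCoA (1.31%). Among all genes tested, 1153 (20.7%) had replicates that did not overlap between the domains, which included all 89. The same replicate numbers tended to deviate together in both domains, a pairing read from these data that the labels do not state. With the replicate number as a block, 569 genes passed (10.2%), among them all 89. Of the 569, 284 were higher in aplCoA (5.11%) and 285 higher in pplCoA. In members with at least 4 Slc1a2 UMIs, 46 of 5382 genes passed (0.855%), 7 higher in aplCoA and 39 in pplCoA, and 293 with the block. Of the 89 genes, 43 passed in the same direction there, 6 of the 15 tested that were higher in aplCoA and 37 of the 73 higher in pplCoA.

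The counts rested on few replicates. Leaving out pplCoA replicate 2 or pplCoA replicate 3 left 0 genes in both cases (edgeR; 684 and 666 genes had an unadjusted p under 0.05), and leaving out aplCoA replicate 3 left 2 genes. DESeq2 called 178 genes (3.2%) with all replicates. No gene of the 89 passed in more than 4 of the 6 fits that left out 1 replicate.

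The gene with the lowest p among those higher in aplCoA was Agt, encoding angiotensinogen, which in the brain is made largely by astrocytes. Agt (chromosome 8, 124556534 to 124569706, mm10) stood at 47.8, 37.1 and 39.4 CPM in aplCoA and at 15.3, 16.1 and 17.3 CPM in pplCoA. Every aplCoA replicate was above every pplCoA replicate. The log2 difference was 1.36 ± 0.162 (SE, n = 3 each; edgeR, adjusted p = 0.015), and 1.45 (adjusted p = 0.00578) in members with at least 4 Slc1a2 UMIs. Agt was seen in 13.3% of members in aplCoA and 5.69% in pplCoA, and after thinning in 6.05% and 2.41%, against 0.496% and 0.274% of microglia. It thus met the 10% filter only in aplCoA, where it was higher, and was tested through that domain. In empty droplets it stood at 27.6 and 22.1 CPM. Gfap or Myoc astrocytes gave a log2 difference of 1.21 (edgeR, adjusted p = 0.0231). Of 11 tested genes of a list of layer and region genes of cortical astrocytes, Agt was the 1 that passed in all members, against 1.6% of all genes, while 4 passed with the block, against 10.2%. With at least 4 Slc1a2 UMIs, Unc13c passed too (log2 difference of -0.75, adjusted p = 0.0455, and -0.03 in all members). The median of that list in all members was 0.145, against 0.024 over all genes.

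Other coding genes higher in aplCoA held an adhesion molecule, an amino acid transporter and a matrix protein. Vcam1, a cell adhesion molecule, stood at 48.3, 52.6 and 51.2 CPM in aplCoA and at 32.2, 31.2 and 33.0 CPM in pplCoA, a log2 difference of 0.63 (adjusted p = 0.0317). With at least 4 Slc1a2 UMIs it was 0.42 (adjusted p = 0.186). Slc38a2, a transporter of neutral amino acids such as glutamine, was at 102, 140 and 152 CPM against 50.7, 80.5 and 52.4 CPM. Its log2 difference was 1.09 (adjusted p = 0.0377), and with at least 4 Slc1a2 UMIs it was seen in too few nuclei to be tested. Sparc, a secreted matrix protein, stood at 566 CPM in microglia and macrophages and, in the members, at 59.1, 65.2 and 66.7 CPM against 37.4, 45.3 and 40.0 CPM (log2 difference of 0.62, adjusted p = 0.0384), and at 114 and 92.3 CPM in empty droplets. It lost its call with at least 4 Slc1a2 UMIs (0.49, adjusted p = 0.381). Gm4491 (adjusted p = 0.0317) stood at 5.32 and 2.62 CPM in empty droplets, below its 47.2 and 24.6 CPM in the members. Gm4491 kept its call with at least 4 Slc1a2 UMIs (log2 difference of 1.00, adjusted p = 0.0173). Over all members, Gm4491 was seen in 16.7% in aplCoA and 9.12% in pplCoA. It thus met the filter for testing only in aplCoA, where it was higher.

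Mitochondrially encoded transcripts were also among the genes higher in aplCoA. Of 13 mitochondrially encoded genes listed, 6 were tested. Of these 6, 5 passed, all higher in aplCoA, against 0.288% of all genes tested, and the median was 1.09. Of those that passed, only mt-Co1 was seen in at least 10% of members in both domains (34.4% and 20.0%). The others reached 10% only in aplCoA, where they were higher, so the filter itself bears on this count. The gene of a subunit of ATP synthase, mt-Atp6, stood at 51.7, 49.4 and 67.3 CPM in aplCoA and at 24.6, 22.6 and 20.6 CPM in pplCoA (log2 difference of 1.28 ± 0.156, SE, adjusted p = 0.0157). The other 4 were mt-Co2, mt-Co1, mt-Nd4 and mt-Cytb, with log2 differences of 0.95 to 1.27, and with at least 4 Slc1a2 UMIs 5 passed again, without mt-Cytb (adjusted p = 0.117) and with mt-Co3 (0.0475). All 5 that passed in all members were also higher in aplCoA in Gfap or Myoc astrocytes, oligodendrocyte precursors, glutamatergic neurons and microglia and macrophages. For mt-Atp6 the log2 differences there were, in that order, 1.336, 1.065, 0.967 and 0.761 (edgeR, adjusted p = 0.0231, 0.00215, 0.00468 and 0.177). Of the members' UMIs, 0.05003%, 0.0466% and 0.0487% were mitochondrial in aplCoA and 0.0275%, 0.0171% and 0.0255% in pplCoA. The domains did not overlap (two-sided exact permutation test, p = 0.1, the smallest the design allows). The 2 libraries summed in aplCoA replicate 1 gave 0.0370% and 0.0729%. Both lay above every pplCoA replicate, but they were further apart than the domain means of 0.0484% and 0.0234%.

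Of 69 ribosomal protein genes, 1 passed (Rps29, log2 difference of 0.71, adjusted p = 0.0315, and 0.0622 with at least 4 Slc1a2 UMIs), with a median of 0.46 over the list, and the share of all genes that passed in this direction was 0.288%. Of 33 nuclear genes of oxidative phosphorylation, 1 passed (Atp5k, 0.83, adjusted p = 0.0418, and 0.142 with at least 4 Slc1a2 UMIs), with a median of 0.396. Ndufa13, an accessory subunit of complex I, also passed, at 0.76 (adjusted p = 0.0332, and 0.38 with at least 4 Slc1a2 UMIs). With the block the counts were 30 and 16, all of them higher in aplCoA, where 5.11% of all genes tested passed in that direction. Empty droplets moved in the same direction, at 3727 CPM of mitochondrially encoded genes in aplCoA and 2362 CPM in pplCoA, and at 27886 and 24839 CPM of ribosomal protein genes. Rps29 differed by 0.917 in Gfap or Myoc astrocytes, 0.549 in oligodendrocyte precursors, 0.744 in glutamatergic neurons and -0.006 in microglia and macrophages. Among these classes it passed only in glutamatergic neurons (edgeR, adjusted p = 0.0107). Of the 16 genes higher in aplCoA, 2 lay above empty droplets in both domains, against 64 of the 73 higher in pplCoA, and the part of free RNA was not tested.

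**Figure D3:**
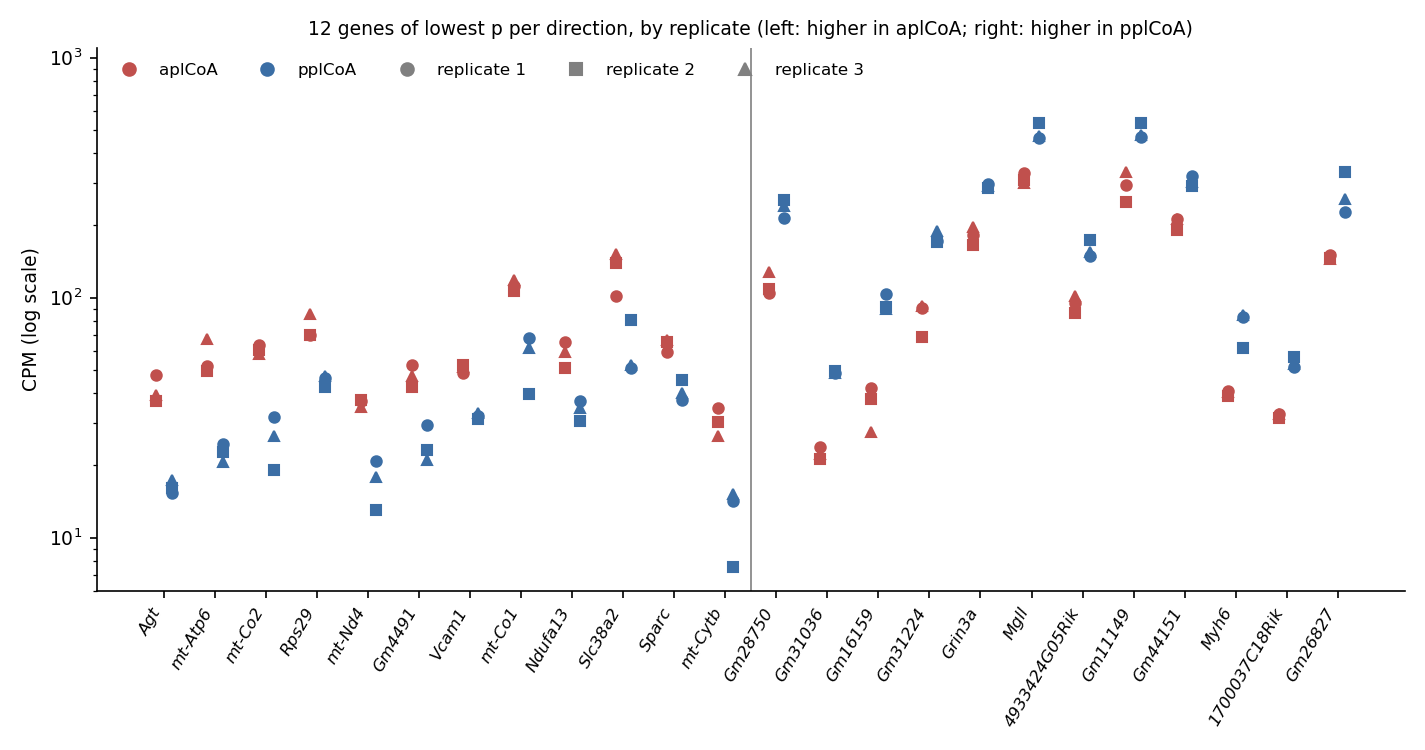
CPM (log scale) of the 12 genes of lowest p in each direction, by replicate (circle, square and triangle for replicates 1 to 3; red, aplCoA; blue, pplCoA), with genes higher in aplCoA left of the line. The genes were picked by lowest p from these same replicates. In each of the 24 genes the replicates of the 2 domains do not overlap, as in 1153 of all 5561 genes tested (20.7%).

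Among coding genes higher in pplCoA, Grin3a, a subunit of NMDA receptors that lowers their calcium flow, stood at 183, 165 and 196 CPM in aplCoA and at 297, 285 and 293 CPM in pplCoA. Every pplCoA replicate was above every aplCoA replicate. The log2 difference was -0.71 ± 0.088 (SE, n = 3 each; adjusted p = 0.0158) and -0.58 (adjusted p = 0.0175) with at least 4 Slc1a2 UMIs. Grin3a stood at 592 CPM in Gfap or Myoc astrocytes, in which the log2 difference was -0.25 (adjusted p = 0.405).

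Mgll, the lipase that breaks down the endocannabinoid 2-arachidonoylglycerol, stood at 332, 309 and 299 CPM in aplCoA and at 463, 536 and 471 CPM in pplCoA. All pplCoA replicates were above all aplCoA replicates, and the log2 difference was -0.67 ± 0.086 (SE, adjusted p = 0.0186) in all members. With at least 4 Slc1a2 UMIs it was -0.56 (adjusted p = 0.0415). Gldc, the glycine-cleaving decarboxylase of the mitochondrion, stood at 263, 269 and 291 CPM against 350, 359 and 382 CPM. Its log2 difference was -0.43 (adjusted p = 0.0394), and -0.32 (adjusted p = 0.175) with at least 4 Slc1a2 UMIs. Gldc was the 1 of 4 tested genes of serine, glycine and folate metabolism that passed, against 1.6% of all genes, and 0 of the 4 passed with at least 4 Slc1a2 UMIs.

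Myh6, a myosin heavy chain gene known from the heart, stood at 40.9, 38.7 and 40.5 CPM in aplCoA and at 83.3, 61.9 and 84.9 CPM in pplCoA. The log2 difference was -0.96 (adjusted p = 0.0257, and 0.0249 with at least 4 Slc1a2 UMIs), with 4.35 and 5.90 CPM in empty droplets. 1700037C18Rik differed by -0.74 (adjusted p = 0.0257, and 0.036 with at least 4 Slc1a2 UMIs) and overlaps Naa60 on the other strand. Of the marker genes of the label, the rule had not used Slc7a10 and Etnppl, and neither passed. Their log2 differences were 0.09 and -0.22 (edgeR, adjusted p = 0.735 and 0.661), with adjusted p of 0.353 and 0.869 with at least 4 Slc1a2 UMIs.

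The genes higher in pplCoA held many transcripts that run antisense to a coding gene. This group was noticed after the values were seen and carries no test of its own. Of the 73 genes, 30 were annotated as antisense and 8 as other noncoding RNA, where antisense genes were 208 of the 5561 tested (3.74%). Of those 208, 178 (85.6%) had a log2 difference below 0, with a median of -0.389 against 0.032 over 5183 coding genes. Summed over the 208 genes, the level was 16120, 16259 and 17843 CPM in aplCoA and 20075, 22014 and 21070 CPM in pplCoA. No aplCoA replicate reached the lowest pplCoA replicate. With the block 4 antisense genes were higher in aplCoA and 96 in pplCoA, where 284 and 285 of all 5561 genes were. With at least 4 Slc1a2 UMIs, 16 were higher in pplCoA and 0 in aplCoA (edgeR), where 39 and 7 of all 5382 genes were.

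Gm28750, which lies antisense to Lsamp, the gene of a limbic adhesion molecule (chromosome 16, 41413166 to 41431092, mm10), stood at 104, 108 and 128 CPM in aplCoA and at 215, 255 and 242 CPM in pplCoA. The log2 difference was -1.08 ± 0.109 (SE, n = 3 each; edgeR, adjusted p = 0.014). Gm16159, antisense to the fibroblast growth factor receptor gene Fgfr1 (chromosome 8, 25548661 to 25556083), stood at 42.0, 37.9 and 27.4 CPM against 104, 91.0 and 89.8 CPM, with a log2 difference of -1.43 (adjusted p = 0.015). Gm31224 and Gm31036, both antisense to the kinesin gene Kifc3, differed by -1.08 and -1.13 (adjusted p = 0.015 and 0.014). Gm31036 was seen in 8.83% of all members in aplCoA and 16.1% in pplCoA. It thus met the filter for testing only in pplCoA, where it was higher. Gm11149 (antisense to Ncam1), Gm44151 (Cacng8), Gm26827 (Chsy1) and 4933424G05Rik (Kctd1) differed by -0.59 to -0.90. In members with at least 4 Slc1a2 UMIs all 8 of these antisense genes passed too.

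Of 29 coding genes overlapped by the called antisense genes and tested, 1 passed (Lyrm4, log2 difference of -0.56, adjusted p = 0.0394), against 1.6% of all genes tested. Of the 29, 24 were below 0, where 44.8% of all genes were, and their median was -0.158, from -0.563 to 0.279. The shift of antisense genes was also seen outside the members. Their median was -0.333 in Gfap or Myoc astrocytes (194 genes tested), -0.357 in oligodendrocyte precursors (143), -0.361 in glutamatergic neurons (174) and -0.0475 in microglia and macrophages (48), so that the sets of genes differ. In empty droplets the summed level was 8321 CPM in aplCoA and 9276 CPM in pplCoA. The study's methods name a 3' chemistry setting under which Cell Ranger counts reads by strand, and what share of an antisense gene's reads came from the gene it overlaps was not tested.

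**Figure D4:**
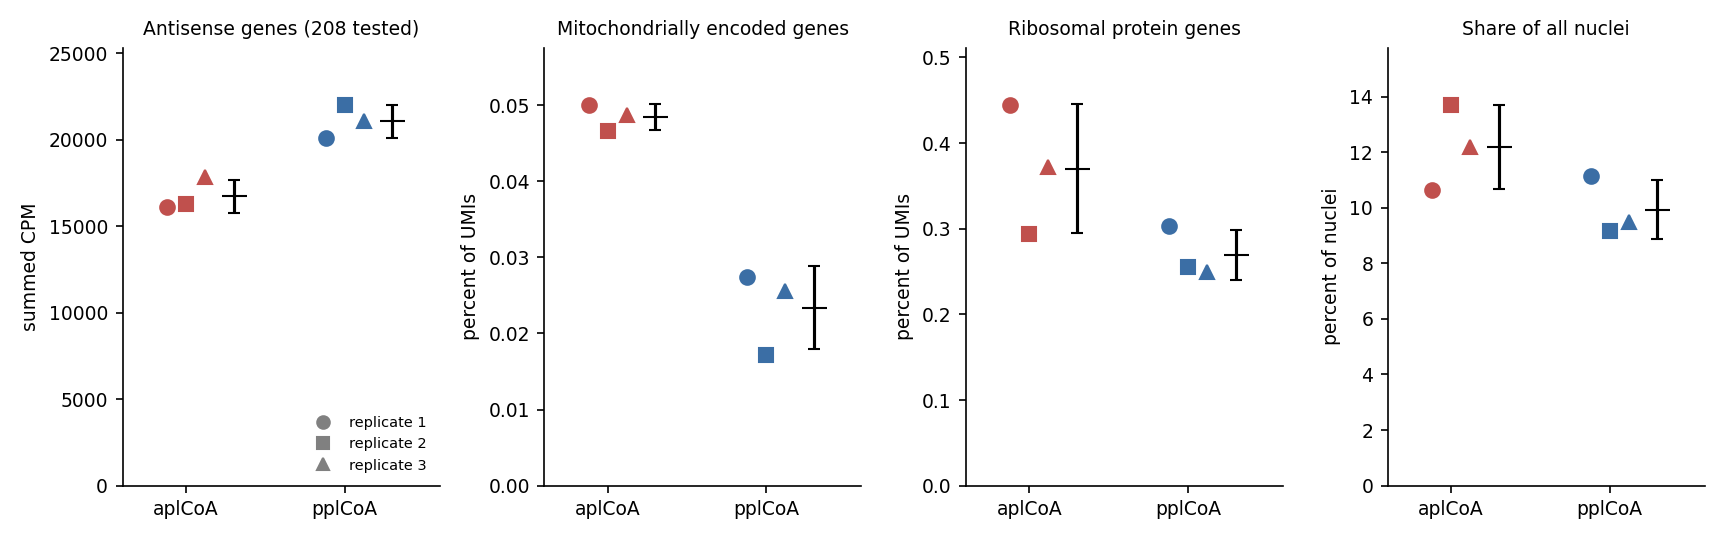
Values of the members in each replicate, with mean and SD (n = 3) beside them, for the summed CPM of 208 antisense genes, the percent of UMIs from mitochondrially encoded and from ribosomal protein genes, and the share of all nuclei. The domains do not overlap for antisense genes and mitochondrially encoded genes and overlap for ribosomal protein genes and the share of nuclei.

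In most of the lists of astrocyte function no gene passed. There were 14 such lists with 148 distinct genes tested, so that 0 passed by edgeR through the grouping itself. Of the 148, 34 had an unadjusted p under 0.05, 7 passed by DESeq2, 13 by edgeR's likelihood ratio test and 26 with the block. Over all genes tested the shares were 16.5% at an unadjusted p under 0.05, 3.2% by DESeq2, 4.78% by the likelihood ratio test and 10.2% with the block. The counts of the list genes lay above each of these shares. Slc1a2 stood at 6075, 6538 and 6796 CPM in aplCoA and at 7637, 7662 and 7639 CPM in pplCoA. The replicates did not overlap, but the log2 difference was -0.27 ± 0.068 (SE, edgeR, adjusted p = 0.0953, and 0.0461 with the block). Nuclei with little Slc1a2, more frequent in aplCoA for each replicate number, are part of this sum, and their part in the difference was not tested. In the list of glutamate and GABA uptake, in which 0 of 10 genes passed, Glul, the glutamine synthetase, averaged 697 CPM, with a log2 difference of -0.13. The potassium and water list (0 of 12) held Slc4a4, a bicarbonate transporter gene, at 2082 CPM, with a log2 difference of -0.27 (adjusted p = 0.183, and 0.0478 with the block). Of gap junction genes (0 of 2), Gjb6 stood at 125 CPM. Aqp4, Slc1a3 and Gja1, which the rule used, are among the genes of these 3 lists.

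No gene of the metabolic and signalling lists passed either, apart from Gldc. Lipid metabolism (0 of 21) was led by Apoe, the apolipoprotein, at 1258 CPM, which was also at 1642 CPM in empty droplets. Glucose, glycogen and lactate genes (0 of 8) were led by Pygb, a glycogen phosphorylase, at 342 CPM. Among receptors (0 of 14), Grm3, a metabotropic glutamate receptor, stood at 1776 CPM with a log2 difference of -0.36 (adjusted p = 0.0544, and 0.011 with the block). In the growth factor list (0 of 17), Fgfr2 stood at 1607 CPM with -0.43 (adjusted p = 0.0828, and 0.00449 with the block) and Bmpr1b at 593 CPM with -0.35 (adjusted p = 0.081, and 0.0152 with the block). Astrocyte transcription factors (0 of 21) included Rora at 4801 CPM, Npas3 at 3576 CPM and Zbtb20 at 2790 CPM. Patterning transcription factors (0 of 13) included Tox at 624 CPM and Meis2 at 325 CPM, with log2 differences of -0.22 and -0.11. Thyroid and transport genes (0 of 10) were led by the cystine transporter gene Slc7a11 at 819 CPM and Slco1c1, a carrier of thyroid hormone, at 523 CPM. Clock genes (0 of 9) were led by Npas2 at 235 CPM, and glucocorticoid targets (0 of 7) by Mt1 at 171 CPM.

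Reactive genes were mostly too low to be tested. Of 24 genes on that list 4 were tested. Apart from Gfap and Myoc, which the rule sets to 0, Lcn2, C3 and Steap4 had no UMI in any member, and Aldh1a1, a retinaldehyde dehydrogenase, stood at 197 CPM against 469 CPM in Gfap or Myoc astrocytes. Of 12 immediate early genes only Jun was tested, at 33.6 CPM. Of 13 tested genes that act on synapses or in phagocytosis, Sparc alone passed, against 1.6% of all genes. It ran against most of the list, in which 2 of 13 genes lay above 0 and the median was -0.196. Replicates did not overlap for 7 of the 13, against 20.7% of all genes, and 8 had an unadjusted p under 0.05, against 16.5%.

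Marker genes of other cells were counted in the members as well. Of 18 genes tested on the 7 of these lists that gave any test, 0 passed (edgeR; 4 had an unadjusted p under 0.05, 0 passed by DESeq2 and 9 with the block, all 9 higher in aplCoA, against 5.11% of all genes in that direction), while GABAergic and ependymal markers were too low to be tested. Summed over the lists, meningeal markers stood between 792 and 1538 CPM in aplCoA and between 585 and 990 CPM in pplCoA, and pan-neuronal genes between 1924 and 3014 CPM and between 1475 and 2350 CPM. Both lists overlapped between domains, but for each replicate number both sums were higher in aplCoA. Glutamatergic markers stood between 115 and 240 CPM and between 74.4 and 148 CPM, again higher in aplCoA for each replicate number, and microglial markers between 78.6 and 118 CPM and between 102 and 137 CPM. The part of such RNA in the differences between domains was not tested. Without the members that met another class rule 74 of 5376 genes passed, and 85 of 5330 in members with no UMI of another class's rule gene.

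The same comparison in other classes gave different counts at other depths and numbers of nuclei. In Gfap or Myoc astrocytes 35 of 5526 genes passed (0.633%), in oligodendrocyte precursors 326 of 6594 (4.94%), in glutamatergic neurons 1616 of 10083 (16%) and in microglia and macrophages 1 of 5416 (0.0185%). Of the 89 genes, 85 were tested in Gfap or Myoc astrocytes and 19 passed there in the same direction, as did 40 of 65 in oligodendrocyte precursors and 52 of 70 in glutamatergic neurons. In microglia and macrophages 0 of 28 passed in the same direction. Whether they passed or not, all 85 had the same direction in Gfap or Myoc astrocytes, a class of 1799 nuclei against 5626 members. These classes came from the same pools as the members, so the comparisons share their tissue.

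Whether the domain difference itself differed between classes was tested as an interaction. Against Gfap or Myoc astrocytes, 1 of 5892 genes passed (0.017%). This was Shisa6, which encodes an auxiliary protein of AMPA receptors. Shisa6 stood at 84.2, 74.7 and 74.6 CPM in the members of aplCoA and at 120, 176 and 160 CPM in those of pplCoA (log2 difference of -0.97, adjusted p = 0.026). In Gfap or Myoc astrocytes it stood at 149, 130 and 138 CPM and at 117, 176 and 154 CPM. The members did not overlap between domains, whereas the Gfap or Myoc astrocytes did. The log2 differences differed by -0.86 ± 0.133 (SE, n = 3 each; edgeR, adjusted p = 0.0464), and 0 genes passed with the replicate block (362 had an unadjusted p under 0.05) or with as many members as nuclei of the other class (307).

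Against oligodendrocyte precursors, 1 of 7291 genes passed (0.0137%), Angpt1, the gene of a ligand of the endothelial receptor Tie2. Angpt1 stood at 108, 87.3 and 121 CPM in the members of aplCoA and at 170, 233 and 220 CPM in those of pplCoA. In the precursors it stood at 15.7, 11.3 and 19.3 CPM in aplCoA and at 6.22, 9.77 and 7.96 CPM in pplCoA. The domains did not overlap in either class, and the order was opposite. In the precursors, with a median of 4297 UMIs per nucleus, these levels were low and the order rests on few UMIs. The log2 differences differed by -1.92 ± 0.186 (SE, adjusted p = 0.00878). With the block 12 genes passed, and 0 passed without doublets (565 at an unadjusted p under 0.05) or with library 2 alone (690). In Gfap or Myoc astrocytes the log2 difference of Angpt1 was -0.63 (adjusted p = 0.117), and in glutamatergic neurons it was 0.71 (adjusted p = 0.0298).

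**Figure D5:**
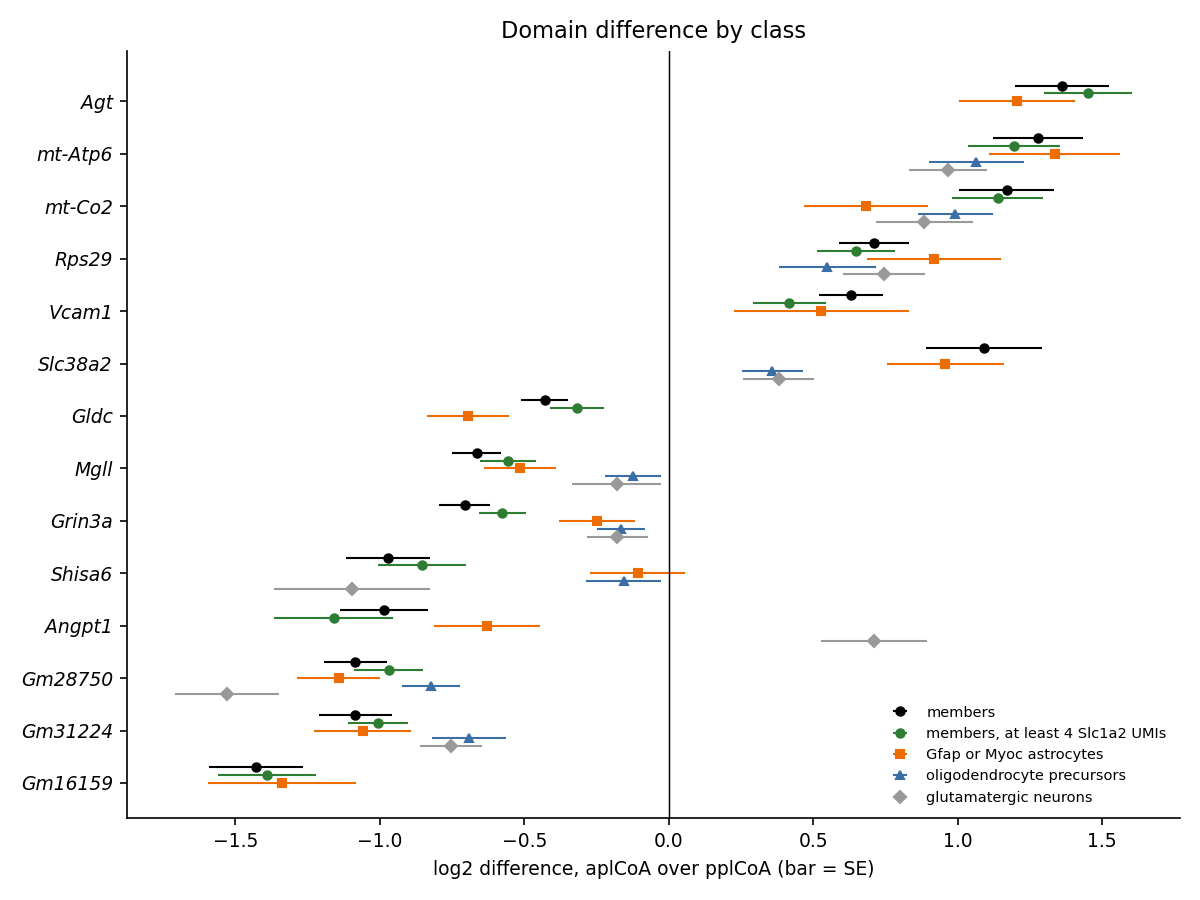
Log2 difference between aplCoA and pplCoA (bar, SE) of 14 genes in the members, in members with at least 4 Slc1a2 UMIs, in Gfap or Myoc astrocytes, in oligodendrocyte precursors and in glutamatergic neurons; a class without a point was not tested for that gene. Agt lies at 1.36 in the members and 1.21 in Gfap or Myoc astrocytes, and Angpt1 lies at -0.985 in the members and 0.71 in glutamatergic neurons.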

How the data were processed

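Nuclei of aplCoA and pplCoA were sequenced in 7 libraries. The authors aligned reads with Cell Ranger 5.0.0 to mm10, introns included, with a stranded 3' chemistry setting, and deposited raw UMI counts for every barcode, not normalized; the file headers name an earlier Cell Ranger. Members and gene lists were chosen with earlier results of these data known, and 78 rows share a symbol with another.

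UMIs were summed per class and replicate. The sums were tested in edgeR 4.0.16 by quasi-likelihood after TMM scaling, with Benjamini-Hochberg adjustment, in R 4.3.3 for genes seen in at least 10% of members of a domain, with DESeq2 1.42.0 as an alternative. Class shares were compared by limma 3.58.1, and single values by exact permutation over replicates. Python 3.11.15 was used with scanpy 1.11.5, whose Scrublet removed doublets only as an alternative. The text names up to 12 called genes per direction by lowest p, up to 4 called genes of a list or else those of highest CPM, the 20 genes of highest ratio to other classes, 10 per direction against Gfap or Myoc astrocytes, the 10 most variable and the called interactions. Replicate numbers were taken to pair replicates because same-numbered ones deviated together (correlations across genes of 0.448, 0.330 and 0.124). Labels do not state this pairing, and it was read from the same values that were then tested. The differently numbered aplCoA replicate 3 and pplCoA replicate 2 gave 0.115, close to the lowest of these. On simulated data, all of the genes changed by a log2 fold change of 1 were called in the comparison of 5561 genes and 70% in the interaction over 5892 genes, with 8 and 5 false calls. These data were drawn with the same spread for every gene and no effect of the pool. The shares called therefore do not say how many changes of this size the real data would yield. Labels do not say that replicates came from separate mice, so p-values measure the spread between pools. Intervals were not computed for thinned shares. Imaging, tracing, spatial data and behaviour were not analysed here, and a few genes that the rule names are not reported here.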

Additional observations from a re-analysis of the deposited data

Results flagged for a closer look

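The test of whether the difference between aplCoA and pplCoA was the same in the members and in another class passed for 2 genes, 1 in each of 2 comparisons. The 5 false calls on simulated data of the first arose among many planted changes, with classes drawn without an effect of the pool. They therefore do not say how many false calls these data would give. For Shisa6 the log2 difference in the members lay -0.86 from that in Gfap or Myoc astrocytes (SE 0.133, edgeR, adjusted p = 0.0464). It did not pass with the replicate block (adjusted p = 0.161) and passed in 9 of 16 fits, with values between -1.06 and -0.80 and adjusted p of 8.44e-05 to 0.622. For Angpt1 the difference in the members lay -1.92 from that in oligodendrocyte precursors (SE 0.186, edgeR, adjusted p = 0.00878). The members were higher in pplCoA and the precursors, at low levels, in aplCoA. It passed with the replicate block (adjusted p = 0.00538) and in 10 of 16 fits, with values between -2.12 and -1.42 and adjusted p of 5.8e-10 to 0.342.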

How the results depend on the processing

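The count of 89 genes became 266 by the likelihood ratio test, 178 by DESeq2 and 569 with the replicate block. It became 30 in members with at least 1500 genes, 40 with at least 8 UMIs of the astrocyte genes and 1 with library 1 alone for aplCoA replicate 1. An adjusted p under 0.01 with a 1.5-fold change left 0 genes. Chosen after seeing the data, at least 4 Slc1a2 UMIs gave 46 and, with the replicate block, 293. Leaving out 1 replicate gave 0 to 159 genes: 0 without pplCoA replicate 2 or 3, 2 without aplCoA replicate 3, 38 without aplCoA replicate 2 and 159 without aplCoA replicate 1. With at least 4 Slc1a2 UMIs it gave 3 to 137. The 1 gene of the interaction with Gfap or Myoc astrocytes became 20 by the likelihood ratio test, 81 over all genes with at least 10 UMIs, 27 with library 2 alone, 4 with at least 4 Slc1a2 UMIs, and 0 with the block, without doublets (438 at an unadjusted p under 0.05) or with as many members as nuclei of the other class. Leaving out 1 replicate gave 0 to 45 (45 without aplCoA replicate 1, 18 without pplCoA replicate 1). For oligodendrocyte precursors the values were 30, 23, 0 (690 at p under 0.05), 2 and, with the block, 12, with 0 without doublets (565) and 0 to 1 without 1 replicate. The difference in share of nuclei was 0.306 with library 2 alone (adjusted p = 0.0393), and that in mitochondrial percentage 0.0207 and 0.0327 with library 1 and 2 alone. With the block all 89 genes passed too. The causes of these changes were not tested. Of 29 named genes followed under each alternative in which they were tested, 0 changed direction. Most of them were picked by lowest p from the same replicates, so a kept direction was largely set by that choice. With library 1 alone 27 lost their call, without aplCoA replicate 3 26 did, and without pplCoA replicate 2 or 3 28 did. The difference in the share of astrocytes without Gfap or Myoc, -0.314 points and within the spread of replicates, turned to 2.21 with at least 1500 genes, 0.980 with at least 8 UMIs of the astrocyte genes, 0.229 with library 2 alone and 0.119 without doublets, and leaving out aplCoA or pplCoA replicate 3 gave 1.16 and 1.78. Shallow nuclei limit detection of low genes, since a member had a median of 3696.5 UMIs.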
